A study of Mus musculus with 16 samples.

Results

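Cxcr4, Gpr183, Itga4, Itgb1, Vcam1 and S1pr1 encode receptors and adhesion molecules that govern where blood cells sit in the bone marrow and when they leave it. The 6 genes were taken by name from the platform annotation and matched 18 probe sets, out of 18193 genes and 45101 probe sets on the arrays. Each gene was read from the probe set with the highest mean over 16 arrays, and the other probe sets are described beside it. On GRCm38.p6 (RefSeq) Cxcr4 lies on chromosome 1 from 128588199 to 128592299, Gpr183 on 14 from 121952331 to 121965193, Itga4 on 2 from 79255426 to 79333114, Itgb1 on 8 from 128685654 to 128733579, Vcam1 on 3 from 116110020 to 116129688 and S1pr1 on 3 from 115710433 to 115715055. A level is an array intensity on a linear scale, and a change is a difference of log2(intensity + 16), so changes of dim genes are understated.

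Hematopoietic stem cells (HSC), the multipotent cells that renew the blood, were sorted from mouse bone marrow and hybridised to arrays, 3 arrays per group. Young HSC came from wild-type mice of 9 to 12 weeks and old HSC from wild-type mice of 24 months. Mid-aged mice of 32 weeks were either wild type (Polgtm1Lrsn+/+) or mutators (Polgtm1Lrsn-/-). Mutators carry a mitochondrial DNA polymerase that lacks proofreading, in every tissue, so their blood cells develop in a body with the same defect. A further 4 arrays held common lymphoid progenitors (CLP), early precursors of lymphocytes, from wild-type mice of 8 to 12 weeks, 2 without and 2 with Ly6D, a surface protein of the B-lineage-biased fraction. All mice were labelled C57Bl6 and female, every array was made from 4000 to 7000 cells, and the labels do not give the sorting gates or say whether animals were pooled. The study set the mid-aged mutator and wild-type HSC against HSC of young and old mice.

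Stem cells stay in the marrow because the chemokine Cxcl12, made by stromal cells, holds them through its receptor Cxcr4. The integrin made of the chains Itga4 and Itgb1 grips Vcam1 on stromal cells, endothelium and marrow macrophages. S1pr1 senses the lipid sphingosine-1-phosphate, which is plentiful in blood, and draws cells out towards it. Gpr183 senses oxysterols and positions lymphocytes and dendritic cells in lymphoid tissue.

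Several features of the arrays ran with the groups. The log2 ratio of the 3′ to the 5′ actin probe sets, which rises when the starting RNA is short or labelling reaches less far, was 2.39 to 2.61 in young HSC and 2.20 to 2.27 in old HSC. It was 4.24 to 5.26 in mid-aged wild-type HSC, 4.74 to 5.25 in mutator HSC, 2.11 to 2.52 in Ly6D-negative CLP and 2.51 to 3.85 in Ly6D-positive CLP. The dap control RNA read 3299 to 5749 on the 6 young and old arrays and 13025 to 20689 on the other 10. The BioB hybridisation control was above an intensity of 1000 on 6 arrays, namely the 4 CLP arrays and replicate 1 of each mid-aged group. Y-linked RNA (Eif2s3y above 100) and no Xist signal were found on 5 arrays, namely mid-aged wild-type replicate 3 and the 4 CLP arrays, against their label of female. Between CLP and young HSC, cell type, the dap and BioB levels and Y-linked RNA cannot be told apart. All 7 measured HSC markers exceeded the 40th percentile on every HSC array, and all 6 CLP markers did so on every CLP array. In each CLP fraction 4 of the 7 HSC markers also did so on every array, and in each HSC group 1 or 2 of the 6 CLP markers. The mean log2 level of the HSC markers was 9.37 to 10.6 on the HSC arrays and 5.61 to 6.33 on the CLP arrays. That of the CLP markers was 5.03 to 5.50 on the HSC arrays and 9.38 to 11.7 on the CLP arrays. Polg itself read 143 ± 26.4 (SD, n = 3) in the mid-aged wild type and 100.3 ± 30.6 (n = 3) in mutators, which does not check a genotype that alters the protein. With 2 or 3 arrays a group, small changes can be missed.

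The upstream sequences of Cxcr4 and Gpr183 are printed because their transcripts rose together in old HSC. RefSeq promoter windows (GRCm38.p6) were at hand for 4 of the 6 genes, Cxcr4, Gpr183, Itga4 and Itgb1, and the 250 bases before each gene's start were searched on both strands for 6 motifs. The GC box was searched as GGGCGG and the TATA box as TATAAA. The core of the motif of the factor NRF1 was searched as GCATGCGC and the core of the hypoxia response motif as ACGTG. The E-box was searched as CANNTG and the AP-1 site as TGANTCA. The Cxcr4 window lies at chr1:128592300-128592549 on the minus strand, and the Gpr183 window at chr14:121965194-121965443 on the minus strand. Capitals mark every match to any of the 6 motifs, and adjoining matches run together.
Cxcr4: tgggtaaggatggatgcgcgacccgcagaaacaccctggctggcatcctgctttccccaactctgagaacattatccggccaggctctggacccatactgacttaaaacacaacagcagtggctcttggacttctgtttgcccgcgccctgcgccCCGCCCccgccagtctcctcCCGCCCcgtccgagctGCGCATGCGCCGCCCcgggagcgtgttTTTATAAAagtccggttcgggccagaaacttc
Gpr183: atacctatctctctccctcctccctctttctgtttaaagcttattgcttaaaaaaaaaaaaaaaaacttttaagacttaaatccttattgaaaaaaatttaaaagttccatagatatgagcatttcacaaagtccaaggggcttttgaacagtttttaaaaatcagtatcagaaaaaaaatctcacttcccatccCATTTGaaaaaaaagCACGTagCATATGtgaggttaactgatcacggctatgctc

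The windows differ in make-up. Cxcr4 has 61.2% G and C, with 3 GC boxes and overlapping TATA boxes on both strands. The NRF1 core matched on each strand at overlapping positions, and the downstream match shares a base with a GC box. Gpr183 has 32.0% G and C, with 2 E-boxes and 1 hypoxia response core and none of the other 4 motifs. Itga4 (64% G and C) held 1 GC box and 1 E-box, and Itgb1 (68.0%) held 1 GC box. The median window had 52.4% G and C. Over 32851 windows of the same length, 32.7% held a GC box, 12.4% a TATA box, 2.26% the NRF1 core, 16.6% the hypoxia core, 66.2% an E-box and 6.75% an AP-1 site. These matches describe letters and are not shown binding sites.

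Cxcr4 rose about 10-fold with age. Its intensities on the young arrays were 197.9, 167.4 and 158.8, and on the old arrays 2057, 2043 and 1653. Every old array was far above every young array. The change was 3.34 ± 0.396 on the log2 scale (SE, 3 against 3 arrays), a fold of 10.1, with an adjusted p of 0.00128 (limma, Benjamini-Hochberg over 13481 genes). It was the 8th largest change of all genes tested. With 1 array left out at a time it stayed between 3.28 and 3.44, and the adjusted p did not exceed 0.0102.

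In the mid-aged groups Cxcr4 was also high. The wild-type arrays read 1736, 769.2 and 869.5, and the mutator arrays 2594, 1184 and 757.4. Both ranges lie above the young arrays, and they overlap each other and the old arrays. Replicate 1 of each group was the highest of its 3 and was also the array with a high BioB control. Mid-aged wild-type HSC exceeded young HSC by 2.49 ± 0.396 (adjusted p = 0.00154, limma). With the actin ratio as a covariate this change was 1.04 with an adjusted p of 0.99978, and that ratio does not overlap between these groups.

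No difference in Cxcr4 by genotype was detected within the mid-aged mice. Mutator minus wild type was 0.33 ± 0.396 (adjusted p = 0.920, limma), and with the BioB level as a block the adjusted p was 0.508. The genotype change minus the age change was tested as 1 contrast and was -3.01 ± 0.559 (adjusted p = 0.0414, limma). That call held in 3 of 12 fits that left out 1 array, those without mutator replicate 1, mid-aged wild-type replicate 1 or mid-aged wild-type replicate 2. In the other 9 the contrast was -3.14 to -2.61 with adjusted p from 0.0620 to 0.135. It was also lost with quantile normalization (adjusted p = 0.0744), no filter (0.0869), every probe set (0.0646) and pseudocount 64 (0.0780). With young replicates 2 and 3 counted as 1 it was lost too (adjusted p = 0.138, limma).

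CLP held less Cxcr4 than mid-aged wild-type HSC. The Ly6D-negative arrays read 288.3 and 228.1 and the Ly6D-positive arrays 360.3 and 656.3. All 4 lie between the young HSC and the mid-aged wild-type HSC. The mean of the CLP groups was below mid-aged wild-type HSC by -1.53 ± 0.370 on the log2 scale (adjusted p = 0.00763, limma over 14343 genes). With the actin ratio as a covariate it was -0.37 with an adjusted p of 0.896. Against wild-type replicate 3 alone, the 1 wild-type array that also carried Y-linked RNA, it was -1.26, given as a change only. Against young HSC it was 0.96 ± 0.370 (adjusted p = 0.0660), with an adjusted p of 0.00815 with array weights and 0.0218 with only the compared groups. The Ly6D-positive arrays were both above the Ly6D-negative arrays, by 0.88 ± 0.485 (adjusted p = 0.496).

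**Figure D1:**
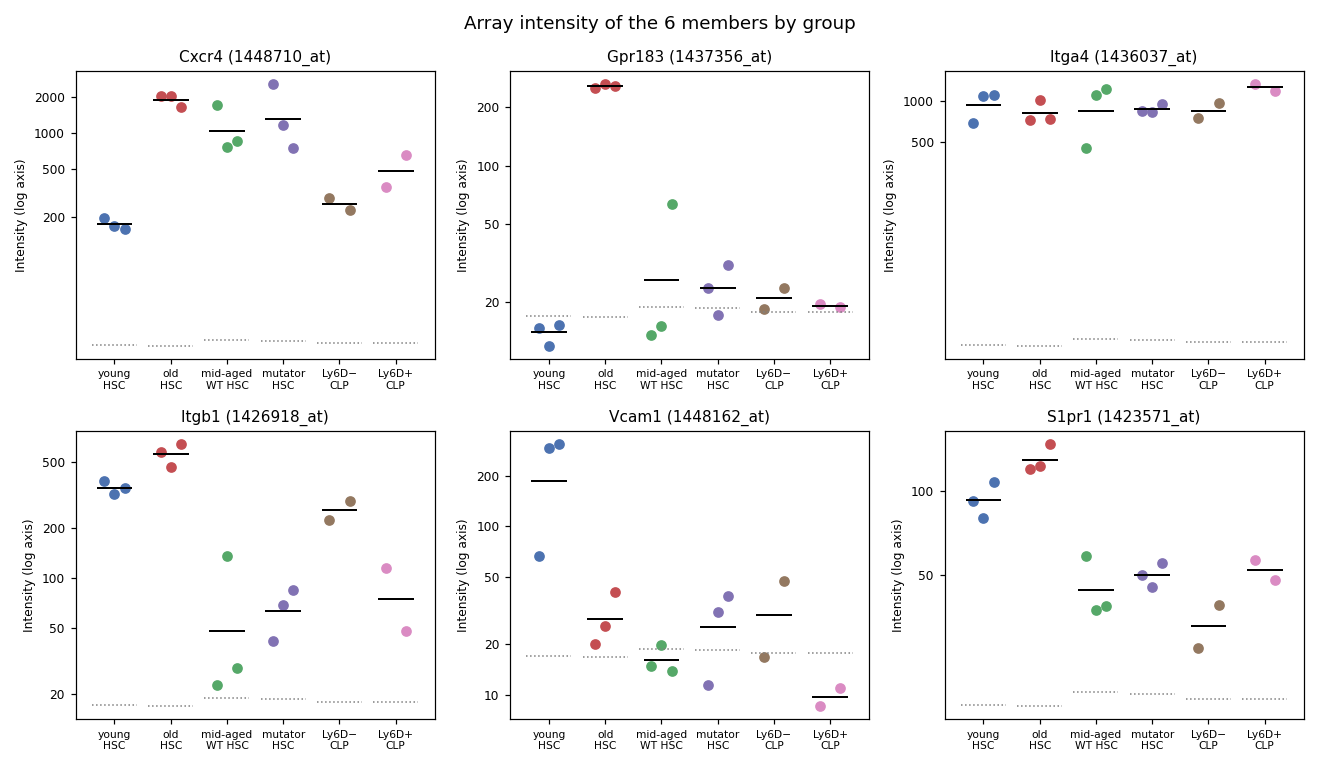
Array intensity (log axis) of the 6 genes in the 6 groups. Each point is 1 array, the bar is the group mean taken on the log2(intensity + 16) scale, and the dotted line is the group's mean 40th percentile of the arrays. Gpr183 stands high only on the 3 old arrays, from 250.4 to 261.7, and Cxcr4 is high on the old and mid-aged arrays.

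Gpr183 rose from background in old HSC. The young arrays read 14.9, 12.0 and 15.4, all below the 40th percentile of their array, and the old arrays 250.4, 261.7 and 256.6. The old arrays agree closely with one another and stand apart from all other arrays. The change was 3.18 ± 0.310 on the log2 scale (adjusted p = 2.84e-04, limma), and its size depends on the pseudocount, from 2.04 with 64 to 4.10 with 1. Its other probe set read 107.7, 151.4 and 148.6 in old HSC against 16.4, 13.5 and 11.5 in young HSC, a change of 2.34 ± 0.192 (adjusted p = 2.69e-04, limma, every probe set tested). The 2 probe sets correlated with r = 0.981 over 16 arrays, which share the groups.

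The mid-aged groups did not share that level. Wild-type arrays read 13.6, 15.1 and 63.7, and mutator arrays 23.7, 17.1 and 31.1. Replicate 3 was the highest of each mid-aged group, and wild-type replicate 3 is the array with Y-linked RNA. The other probe set read 19.3, 17.5 and 39.0 in wild type but 25.5, 19.4 and 18.1 in mutators. On the first probe set mid-aged wild type minus young was 0.48 ± 0.310 (adjusted p = 0.300, limma), and with array weights it was 0.89 and called (adjusted p = 0.0228). Mutator minus wild type was -0.08 ± 0.310 (adjusted p = 0.984). The genotype change minus the age change was -3.26 ± 0.439 (adjusted p = 0.00674, limma) and was called in all 12 fits with 1 array left out, with adjusted p up to 0.0304.

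CLP read 18.4 and 23.7 without Ly6D and 19.6 and 18.9 with it. These 4 arrays lie just above the 40th percentile, which was 17.8 to 17.9 on them. CLP minus young HSC was 0.27 ± 0.272 (adjusted p = 0.504, limma), CLP minus mid-aged wild type -0.21 ± 0.272 (adjusted p = 0.613), and the Ly6D contrast -0.07 ± 0.356 (adjusted p = 0.981). Wild-type replicate 3 is the single high array of its group. CLP minus that array alone was -1.14, given as a change only since it rests on 1 array.

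Itgb1, the common beta chain of the VLA integrins, was highest in old HSC and next highest in young HSC. Young arrays read 385.7, 321.9 and 350.5, and old arrays 582.0, 471.3 and 645.2. The old arrays were all higher, but the change of 0.65 ± 0.422 did not pass (adjusted p = 0.888, limma). With only the young and old arrays in the fit the adjusted p was 0.0281, and with array weights 0.0135.

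Itgb1 was low in both mid-aged groups. Wild-type arrays read 22.6, 136.2 and 28.6, and mutator arrays 41.9, 68.4 and 85.2. None reached the lowest young array. Mid-aged wild type fell by 2.52 ± 0.422 on the log2 scale against young HSC (adjusted p = 0.00203, limma). It was called in all 6 fits with 1 array left out. Mutator minus wild type was 0.31 ± 0.422 (adjusted p = 0.933).

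Itgb1 was low where the actin ratio was high. The 7 arrays with the highest ratios, 3.85 to 5.26, are the 6 mid-aged arrays and 1 Ly6D-positive array, and they held 7 of the 8 lowest values. With the ratio as a covariate the mid-aged change was 1.21 in the other direction (adjusted p = 0.911). No gene at all passed in that comparison with the covariate in the fit. Age group, RNA ratio and dap control level cannot be told apart between young and mid-aged HSC.

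**Figure D2:**
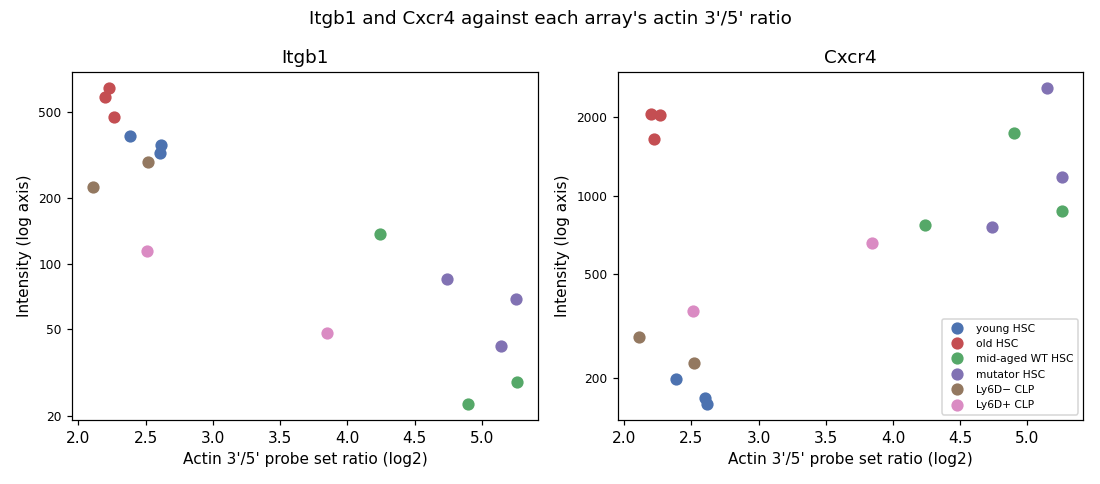
Intensity (log axis) of Itgb1 (left) and Cxcr4 (right) against the log2 ratio of 3′ to 5′ actin probe sets, 1 point per array, coloured by group. Itgb1 falls from 645.2 at a ratio of 2.23 to 22.6 at a ratio of 4.90, while Cxcr4 is high at both ends, on the old and the mid-aged arrays.

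Within CLP, Itgb1 read 225.3 and 293.7 without Ly6D and 114.5 and 47.8 with it. Both Ly6D-positive arrays were below both Ly6D-negative arrays, by -1.58 ± 0.528 on the log2 scale (adjusted p = 0.166, limma). The lower of them, replicate 2, has the actin ratio of 3.85. CLP were below young HSC by -1.22 ± 0.403 (adjusted p = 0.0351), a call kept in 1 of 7 fits with 1 array left out, that without Ly6D-positive replicate 1. In the other 6, which left out either Ly6D-negative array, Ly6D-positive replicate 2 or any of the young arrays, the change was -1.31 to -0.96 and the adjusted p 0.0502 to 0.114. It was also lost with the replicate number as a block (adjusted p = 0.0635), quantile normalization (0.0591), no filter (0.0523) and pseudocount 1 (0.0506). With young replicates 2 and 3 counted as 1 it was lost too (adjusted p = 0.0821, limma). CLP exceeded mid-aged wild-type HSC by 1.3 ± 0.403 (adjusted p = 0.0280). That call was lost without Ly6D-negative replicate 2, Ly6D-positive replicate 1, or mid-aged wild-type replicate 1 or 3, with changes of 0.94 to 1.21. It was also lost with the replicate number as a block (adjusted p = 0.0514) and with only the compared groups (adjusted p = 0.166, limma). With the actin ratio as a covariate the change was -0.88 (adjusted p = 0.561).

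The 6 probe sets of Itgb1 differ in brightness. The next brightest read 275.8 to 350.4 in young HSC, 437.6 to 557.0 in old HSC, 34.0 to 55.6 in the mid-aged wild type and 37.5 to 50.2 in mutators. It correlated with the first at r = 0.949 over 16 arrays. Its mid-aged fall was -2.49 ± 0.152 (adjusted p = 7.54e-05, limma, every probe set tested). It also read 131.4 and 177.3 in Ly6D-negative CLP and 64.8 and 68.7 in Ly6D-positive CLP, a fall of -1.03 ± 0.189 (adjusted p = 0.0228). Another was dim (10.4 to 42.2) and ran the same way, and its mid-aged fall was -0.57 ± 0.138 (adjusted p = 0.0278). The remaining 3 were above the 40th percentile on 0 arrays and show no level of the gene.

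Itga4, the alpha chain that pairs with Itgb1 to bind Vcam1, was bright in every group and passed in no comparison on the probe set chosen for it. Its brightest probe set read 686.2, 1081 and 1108 in young HSC, 731.1, 1009 and 740.6 in old HSC, 459.2, 1095 and 1217 in mid-aged wild type and 843.7, 825.1 and 948.8 in mutators. The CLP arrays read 747.2 and 957.9 without Ly6D and 1328 and 1189 with it. The 4 HSC groups overlap one another. The changes ran from -0.19 ± 0.324 (old minus young, adjusted p = 0.9996, limma) to 0.56 ± 0.377 (Ly6D-positive minus Ly6D-negative CLP, adjusted p = 0.613).

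The other Itga4 probe sets did not follow it. Correlations among the 4 that were above the 40th percentile anywhere were 0.274 to 0.526 over 16 arrays. The next brightest read 57.5, 142.3 and 157.3 in young HSC, 30.3, 55.1 and 28.1 in old HSC, 119.4 to 193.6 in mid-aged wild type, 160.2 to 282.0 in mutators and 197.9 to 400.8 in CLP. CLP exceeded young HSC on it by 1.13 ± 0.307 (adjusted p = 0.0170, limma, every probe set tested), and old minus young was -1.26 ± 0.347 (adjusted p = 0.170). A dim one (7.87 to 33.1) was higher in Ly6D-positive than Ly6D-negative CLP by 0.85 ± 0.174 (adjusted p = 0.0416). Another (47.9 to 158.7) passed in none of the 7 comparisons, and the last was at background on all 16 arrays.

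**Figure D3:**
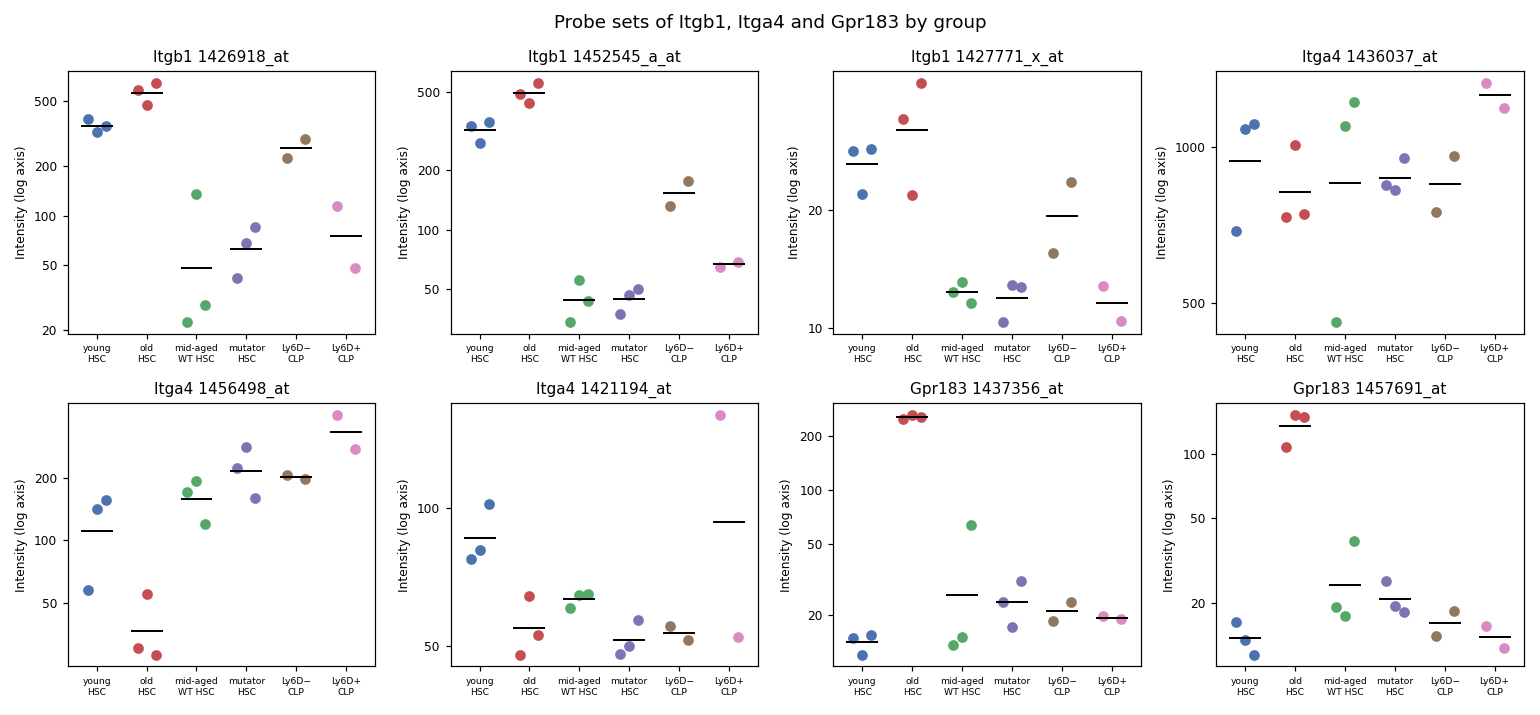
Array intensity (log axis, own range per panel) of the Itgb1, Itga4 and Gpr183 probe sets that lay above the 40th percentile of the array on 7 or more arrays, 1 point per array with the group mean as a bar. All Itgb1 panels are highest in old and then young HSC and both Gpr183 panels are highest in old HSC, while the Itga4 panels differ in the order of the HSC groups.

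Vcam1, the ligand of that integrin, was highest on the 3 young arrays. It read 66.7, 292.0 and 307.0 in young HSC, and 20.0, 25.9 and 40.9 in old HSC. Young replicate 1 is far below the other young arrays, and no young array overlaps the old arrays. The fall was -2.19 ± 0.453 on the log2 scale (adjusted p = 0.0421, limma). Only the fit without young replicate 1 kept the call (adjusted p = 0.00140), and without any 1 of the other 5 arrays the change was -2.38 to -1.86 with adjusted p from 0.0785 to 0.199. The call was also lost with median centring (0.0525), no filter (0.0834), every probe set (0.0615) and pseudocount 64 (0.0702), each an adjusted p from limma. It was lost too with the actin ratio as a covariate (0.0830) and with the mean of the probe sets, where the change was -0.77 (0.0868). With young replicates 2 and 3 counted as 1 the change was -1.87 (adjusted p = 0.192, limma). Over the genes tested those 2 arrays correlated at r = 0.996, and each of them with replicate 1 at 0.986.

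The other groups were low as well. Vcam1 read 14.9, 19.9 and 14 in the mid-aged wild type, 11.5, 31.1 and 38.9 in mutators, 16.8 and 47.8 in Ly6D-negative CLP and 8.64 and 11 in Ly6D-positive CLP. Of these and the old arrays, 7 of 13 exceeded the 40th percentile of their array, which was 16.6 to 21.3. Mid-aged wild type was below young HSC by -2.65 ± 0.453 (adjusted p = 0.00221, limma) and CLP were below young HSC by -2.56 ± 0.422 (adjusted p = 5.32e-04), each called in all fits with 1 array left out, although with the actin ratio as a covariate the first was as large, at -2.68, and no longer called (adjusted p = 0.794). Mutator minus wild type was 0.37 ± 0.453 (adjusted p = 0.923), the genotype change minus the age change 2.56 ± 0.641 (adjusted p = 0.164, but called without young replicate 1 at 3.20, adjusted p = 0.00802, and with array weights at 3.19, adjusted p = 0.0198), the Ly6D contrast -0.83 ± 0.552 (adjusted p = 0.610) and CLP minus mid-aged wild type 0.09 ± 0.422 (adjusted p = 0.897).

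Marrow macrophages, stromal cells and endothelium carry Vcam1, and their markers are given beside it. Markers of stroma and endothelium summed to 948 to 1106 in young HSC, 1026 to 1219 in old HSC and 1077 to 1701 in mid-aged wild-type HSC. From young to old, 2 of the 6 tested had a positive change and 4 a negative one, and 1 was called higher (limma). Of 11 macrophage markers, all 11 had a negative change from young to old (median -0.56), although none of them passed the test (limma). Their summed intensity was 1130 to 1490 in young HSC, 807 to 1022 in old HSC, 1144 to 1563 in mid-aged wild-type HSC, 851 to 1499 in mutators, 1001 to 1400 in Ly6D-negative CLP and 769 to 1078 in Ly6D-positive CLP. On every young array 10 of the 11 lay above the 40th percentile, on every old array 6, and in old HSC 4 were above it on no array. The mid-aged wild-type sums overlap the young ones, and Vcam1 there was 14 to 19.9. Against young HSC, 10 of the 11 macrophage markers were negative in mid-aged wild type (median -0.42), and 1 was called lower (limma). The mean log2 level of the macrophage markers was 5.97 to 6.51 on the young arrays and 5.76 to 5.89 on the mid-aged wild-type arrays. The part of RNA from macrophages, stroma or endothelium in the falls of Vcam1 was not tested. Neutrophil markers moved too, with a negative change from young to old in all 8 tested (median -2.19) and none called by limma. In sorted samples, fewer cells of a type and less RNA per cell cannot be told apart.

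The closest partners of Vcam1 were Cd5l (r = 0.904), Cxcl12 (r = 0.903) and Hpgd (r = 0.874) over 16 arrays, among 13354 genes. Cd5l, a secreted protein of tissue macrophages, read 43.9, 82.6 and 118.8 on the young arrays and 34.0 to 51.1 on the old. Cxcl12, the stromal ligand of Cxcr4, read 25.8, 153.4 and 205.3 on the young arrays and at most 26.0 on any other array. As for Vcam1, young replicate 1 was the lowest of its group for both. The remaining Vcam1 probe sets, at 13.4 to 34.5 and 12.9 to 28.8, were near background everywhere and passed in none of the 7 comparisons.

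**Figure D4:**
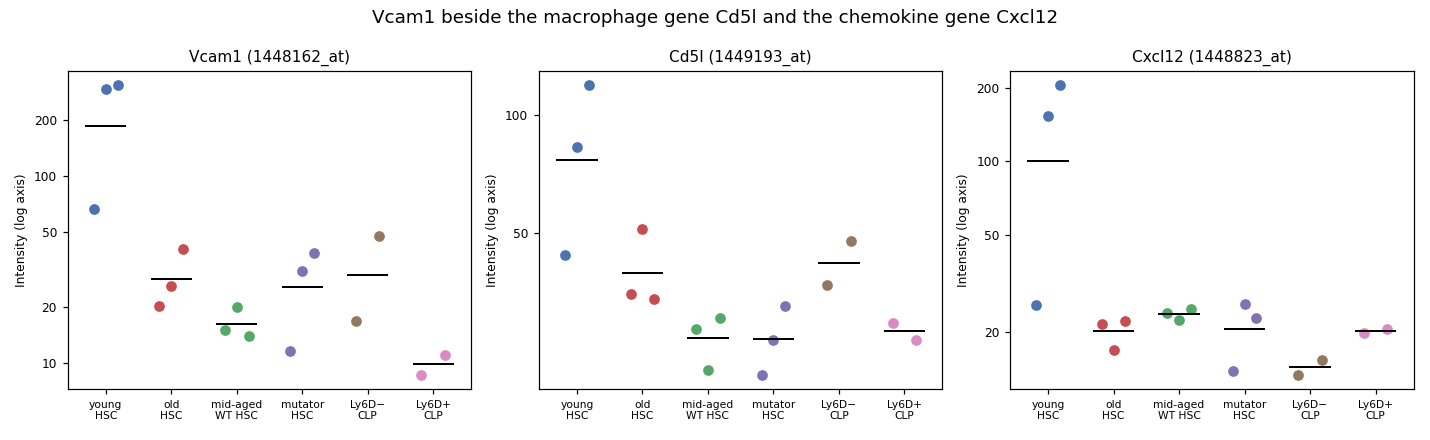
Array intensity (log axis) of Vcam1, Cd5l and Cxcl12 by group, 1 point per array with the group mean as a bar. In all 3 panels young replicates 2 and 3 are the highest arrays, and young replicate 1 lies well below them.

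S1pr1, the egress receptor, was a moderate transcript with tight replicates. It read 91.5, 80.0 and 107.4 in young HSC and 119.8, 122.4 and 147.0 in old HSC. The old arrays were all higher, by 0.42 ± 0.168 on the log2 scale, which did not pass (adjusted p = 0.416, limma). With array weights the adjusted p was 0.0266.

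S1pr1 was lower in mid-aged HSC and in CLP. Wild-type arrays read 58.4, 37.3 and 38.6, mutator arrays 49.8, 45.3 and 55.1, Ly6D-negative CLP 27.3 and 38.9, and Ly6D-positive CLP 56.3 and 47.8. None reached the lowest young array. Mid-aged wild type fell by 0.85 ± 0.168 against young HSC (adjusted p = 0.00444, limma) and CLP by 0.91 ± 0.156 (adjusted p = 6.80e-04), both called whichever array was left out. With the actin ratio as a covariate the mid-aged change was -0.88 with an adjusted p of 0.855. Mutator minus wild type was 0.14 ± 0.168 (adjusted p = 0.923), Ly6D-positive minus Ly6D-negative CLP 0.48 ± 0.204 (adjusted p = 0.328) and CLP minus mid-aged wild type -0.06 ± 0.156 (adjusted p = 0.814).

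The order of the groups differed among the genes. For Cxcr4 the mean log2 level ran from old HSC (10.9) through mutator (10.4), mid-aged wild type (10.1), Ly6D-positive CLP (8.97) and Ly6D-negative CLP (8.09) to young HSC (7.57), and the top 3 overlap. For Gpr183 old HSC (8.09) stood alone over 5 groups between 4.91 and 5.39. For Itgb1 the order was old HSC (9.17), young HSC (8.52), Ly6D-negative CLP (8.09), Ly6D-positive CLP (6.51), mutator (6.31) and mid-aged wild type (6), of which the last 3 overlap. S1pr1 ran from old HSC (7.18) and young HSC (6.76) to 4 groups between 5.61 and 6.09. Vcam1 led in young HSC (7.66) over 5 groups between 4.69 and 5.51, and Itga4 spanned only 0.61 from the highest to the lowest group.

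The 6 genes were chosen with earlier results of these data known, so the shares below describe them and do not test them. Counted together, 3 of the 6 genes passed in old against young HSC, where 1.31% of all genes did. Cxcr4 and Gpr183 went upwards and Vcam1 downwards, the last called in 1 of 6 fits with 1 array left out. On 5 of the 6 the arrays did not overlap, which held for 27.2% of all genes. In mid-aged wild-type against young HSC 4 of 6 passed, 1 up (Cxcr4) and 3 down (Itgb1, Vcam1, S1pr1), against 24.2% of all genes, and the same 4 did not overlap, against 38.3%. Mutator against wild type gave 0 of 6, as it gave 0% of all genes by limma. An unadjusted p under 0.05 was found for 984 of 13481 genes, where 674 would be expected if no gene changed. The arrays overlapped for all 6, and 6.08% of all genes had none. The genotype change minus the age change passed for 2 of 6, Cxcr4 and Gpr183, against 0.512% of all genes.

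Between the CLP fractions 0 of 6 passed, against 2.68% of all genes (384 by limma), and S1pr1 and Itgb1 had unadjusted p of 0.0354 and 0.0102. Of all 14343 genes, 1859 had an unadjusted p under 0.05, where 717 would be expected if no gene changed. On 5 of 6 the 2 arrays of each fraction did not overlap, against 35.3% of all genes. CLP against young HSC gave 3 of 6, all down (Itgb1, Vcam1, S1pr1), against 30.7%, and no overlap for 5 of 6, against 40.1%. CLP against mid-aged wild-type HSC gave 2 of 6, Itgb1 up and Cxcr4 down, against 28.0%, and no overlap for 1 of 6, Cxcr4, against 25.0%. The CLP comparisons with each HSC group share the CLP arrays, and the comparisons with young HSC share the young arrays.

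**Figure D5:**
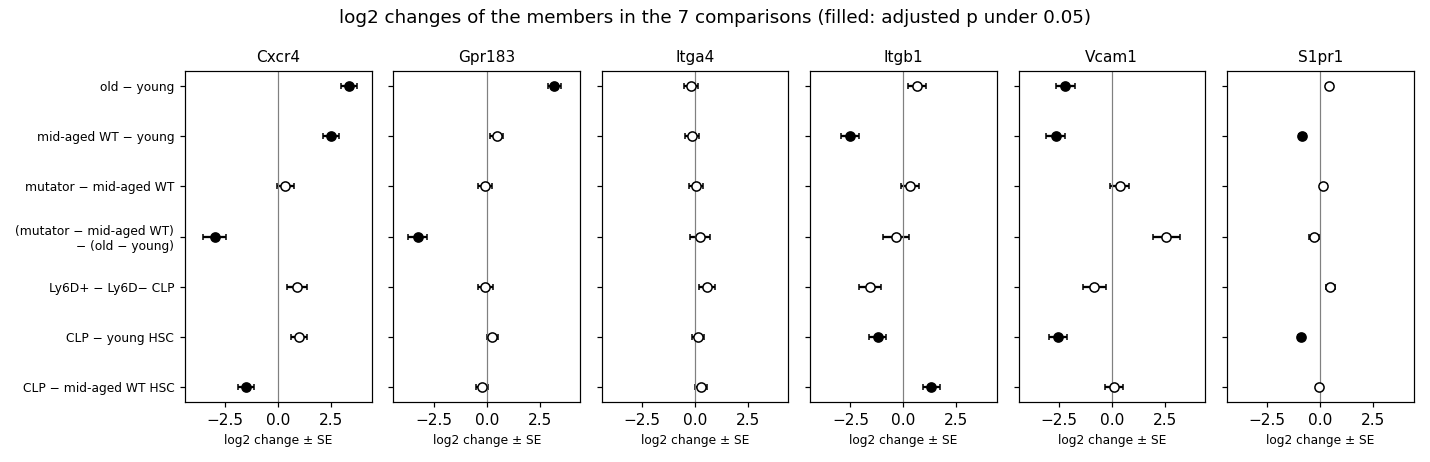
log2 changes of the 6 genes in the 7 comparisons with standard errors from limma. Filled points passed an adjusted p of 0.05. Cxcr4 and Gpr183 are the genes with filled points to the right in old minus young, at 3.34 and 3.18, and no point is filled in mutator minus mid-aged wild type.

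Other genes of the same pathways came from 7 lists of 96 genes, of which 91 had a probe set and 79 passed the filter in HSC. These lists too were chosen with earlier results of these data known, so their shares are a description. In old against young HSC 3 of 79 rose and 0 fell, which is 3.8% against 1.31% of all genes (median change -0.02). The count was 1 without any 1 of the old arrays or without young replicate 2, 19 with array weights (12 higher, 7 lower) and 13 with only the compared groups (9 higher, 4 lower). Selp, the P-selectin of platelets and endothelium, rose from 117.3, 138.7 and 201.5 to 1138, 1343 and 1144 (2.89 ± 0.260, adjusted p = 1.89e-04, limma). Itga6, a laminin-binding integrin chain, rose by 1.18 ± 0.198 (adjusted p = 0.0119) from 897.7, 1110 and 1195 to 2483, 2413 and 2361. Itgb3, which pairs with Itga2b on platelets and stem cells, rose by 1.63 ± 0.340 (adjusted p = 0.0437) from 472.8, 598.3 and 459.1 to 1847, 1313 and 1702. The chemokine axis (6 tested), the sphingosine-1-phosphate and other egress receptors (12), the oxysterol axis (4), integrin activation (15) and receptor signalling (17) gave no call by limma. Megakaryocyte markers summed to 1570 to 1982 in young and 3087 to 4757 in old HSC. Of the 6 tested, 4 had a positive change and 2 a negative one (median 0.24), and none was called. The part of megakaryocyte RNA in the Selp and Itgb3 values was not tested.

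In mid-aged wild-type against young HSC 8 of 79 pathway genes rose and 12 fell, which is 25.3% against 24.2% of all genes (median -0.11). The 20 calls became 12, 12 and 11 without young replicates 1, 2 and 3 in turn, 13 with only the compared groups, 10 with young replicates 2 and 3 counted as 1, and 0 with the actin ratio as a covariate. Selp rose by 1.53 ± 0.260 (adjusted p = 0.00217, limma), and Grk3, a kinase that desensitises chemokine receptors, rose by 2.09 ± 0.487 (adjusted p = 0.0101). Of 15 integrin activation genes 3 rose and 4 fell, among them the small GTPases Rac1 (-1.88 ± 0.153, adjusted p = 8.34e-05), Cdc42 (-1.51 ± 0.252, adjusted p = 0.00198) and Rap1b (-1.18 ± 0.189, adjusted p = 0.00161). Fermt3, the kindlin of blood cells, rose by 0.85 ± 0.170 (adjusted p = 0.00474). Cxcl12 fell by 1.55 ± 0.465 (adjusted p = 0.0317). These changes share the limit of the actin ratio given for Itgb1.

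Mutator against wild type gave 0 of 79 (limma). For the genotype change minus the age change 1 of 79 passed, Selp, at -2.75 ± 0.368 (adjusted p = 0.00674). Selp read 335.1 to 622.6 in mid-aged wild type and 376.5 to 625.9 in mutators, so the mid-aged groups overlap.

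In the CLP fractions 84 pathway genes were tested, and 1 was higher and 6 lower with Ly6D, which is 8.33% against 2.68% of all genes (median -0.07). With array weights 3 were called, and with only the compared groups 0. Ccr7, the receptor that takes lymphocytes to lymph nodes, rose from 32.1 and 27.8 to 120.9 and 138.8 (1.67 ± 0.145, adjusted p = 3.71e-05, limma). Ccr9, a receptor for entry into thymus and gut, fell from 1051 and 1366 to 86.2 and 289.9 (-2.78 ± 0.342, adjusted p = 4.73e-04). Hsd3b7, an enzyme that inactivates the Gpr183 ligand, fell from 239.8 and 254.5 to 26.7 and 22.1 (-2.70 ± 0.291, adjusted p = 1.75e-04). Itgb7, an alternative partner of Itga4, fell by 1.52 ± 0.281 (adjusted p = 0.0122), Apbb1ip by 1.61 ± 0.329 (adjusted p = 0.0197), Cd44 by 1.13 ± 0.258 (adjusted p = 0.0356) and Cxcr3 by 0.97 ± 0.230 (adjusted p = 0.0427).

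Against young HSC 18 of 84 pathway genes were higher and 23 lower in CLP, which is 48.8% against 30.7% of all genes (median 0.03). Here cell type cannot be told apart from the dap and BioB levels and Y-linked RNA. Itgal, the alpha chain of the leukocyte integrin LFA-1, read 826.6 to 1268 in CLP and 42.7 to 55.9 in young HSC (3.90 ± 0.186, adjusted p = 7.44e-09, limma). Ccr9 rose by 4.28 ± 0.261 (adjusted p = 7.08e-08) and S1pr3, another sphingosine-1-phosphate receptor, by 3.57 ± 0.385 (adjusted p = 1.63e-05). The oxysterol enzymes Hsd3b7 (-3.97 ± 0.222, adjusted p = 3.51e-08) and Cyp7b1 (-3.28 ± 0.319, adjusted p = 6.54e-06) fell, as did Itga2b (-3.27 ± 0.197, adjusted p = 6.22e-08), Itga6 (-3.46 ± 0.384, adjusted p = 2.14e-05) and Esam (-3.29 ± 0.246, adjusted p = 4.97e-07), an adhesion molecule of endothelium and stem cells.

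Against mid-aged wild-type HSC 24 of 84 were higher and 17 lower in CLP, which is 48.8% against 28.0% of all genes (median -0.04). This count was 6 higher and 10 lower with the actin ratio as a covariate. Itgal (4.45 ± 0.186, adjusted p = 1.74e-09, limma), Ccr9 (4.27 ± 0.261, adjusted p = 7.70e-08) and S1pr3 (3.37 ± 0.385, adjusted p = 2.94e-05) were again higher, and Selp (-3.87 ± 0.256, adjusted p = 1.60e-07), Hsd3b7 (-3.75 ± 0.222, adjusted p = 5.71e-08) and Itga2b (-3.03 ± 0.197, adjusted p = 1.40e-07) lower. Rac1 was 0.82 ± 0.167 above mid-aged wild-type HSC (adjusted p = 0.00266) and -1.06 ± 0.167 below young HSC (adjusted p = 3.64e-04), so its direction in CLP depends on which HSC group is used, as for Itgb1.

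The genes whose log2 levels were most like each receptor were found over the 16 arrays among 13354 genes, as a description, since the arrays share groups and labelling. Cxcr4 was most like Zg16 (r = 0.874), Mt1 (r = 0.845), a metallothionein, and Ctse (r = 0.835), a protease. Ctse read 326.4 to 360.0 in young HSC, 4258 to 4890 in old HSC, 2871 to 5538 in mid-aged wild type, 3801 to 6151 in mutators and 342.3 to 506.5 in CLP, so, like Cxcr4, it was high in the old and mid-aged HSC. Gpr183 was most like Exoc3l4 (r = 0.966), Tdrd9 (r = 0.960) and Tc2n (r = 0.957). Tdrd9, a germline helicase, read 511.6 to 788.6 in old HSC and at most 65.1 on any other array, the same split as Gpr183.

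Itgb1 was most like Micu2 (r = 0.963), a regulator of the mitochondrial calcium channel, Ykt6 (r = 0.956) and Vps50 (r = 0.951), both of vesicle traffic. Ykt6 read 701.6 to 805.4 in young HSC, 742.0 to 853.5 in old HSC and 72.9 to 264.6 in mid-aged wild type, the division seen for Itgb1. S1pr1 was most like Asah1 (r = 0.944), the acid ceramidase of the pathway that makes sphingosine, N4bp2 (r = 0.940) and Avl9 (r = 0.924). Asah1 read 1324 to 1492 in young HSC, 1516 to 1902 in old HSC, 419.9 to 641.8 in the mid-aged groups and 227.1 to 626.6 in CLP. Itga4 was most like Fam193a (r = 0.853), Cxxc1 (r = 0.835) and Mcmbp (r = 0.829), and after quantile normalization these fell to 0.680, 0.755 and 0.745.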

How the data were processed

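The authors deposited 1 linear intensity per probe set and array. Their summary and normalization method is not given in the sources used here. Per the labels' protocols, total RNA came from a microRNeasy extraction, and 4000 to 7000 cells went into each labelling.

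Here log2(intensity + 16) was computed. Of 45101 probe sets 34945 carried 1 gene symbol, 932 several and 9211 none. Each gene took its brightest probe set over all 16 arrays. It was tested when that value passed the 40th percentile on 3 or more of the 12 HSC arrays (13481 genes), or on 2 or more of all 16 (14343 genes). Groups were compared with limma (version 3.58.1, R 4.3.3), using lmFit and eBayes, with Benjamini-Hochberg adjustment over every gene tested and a threshold of 0.05. The 4 HSC contrasts used the 12 HSC arrays and the 3 CLP contrasts all 16. The fits were tested on simulated data.

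The members and pathway lists were chosen with earlier results of these data known. The genes named are the 6 members with every probe set, up to 4 genes of smallest p among those called per pathway list and comparison, and the 3 most correlated genes per member, without provisional symbols. Cell type markers and sex-linked transcripts were named as checks, and array controls and Polg were added to them outside that rule.

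Replicates are labelled biological, without saying whether animals were pooled. Alternatives covered normalization, filter, pseudocount, choice of probe set, array weights, the actin ratio as a covariate, the arrays in the fit, arrays left out and the replicate number as a block. Fits on the BioB control and on arrays with Y-linked RNA were added after the data were seen.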

Additional observations from a re-analysis of the deposited data

Results flagged for a closer look

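The age change and the genotype change differed by test for 2 of the 6 genes. For Cxcr4 the genotype change minus the age change was -3.01 on the log2 scale (adjusted p = 0.0414, limma), higher in 3 of 3 old arrays than in any young array and overlapping between the mid-aged groups. That call was lost in 9 of 12 fits with 1 array left out, and with quantile normalization, no filter, every probe set and pseudocount 64 (adjusted p from 0.0646 to 0.0869). With young replicates 2 and 3 counted as 1 it was lost too (adjusted p = 0.138, limma). For Gpr183 the genotype change minus the age change was -3.26 (adjusted p = 0.00674, limma), again with 3 of 3 old arrays above every young array. The mid-aged wild-type arrays already held a high Cxcr4 level (769.2 to 1736) but not a high Gpr183 level (13.6 to 63.7).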

How the results depend on the processing

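Of 918 member values under alternatives, 824 kept their direction and their side of the threshold. Another 35 changed sign (0 of them past the threshold), 48 lost a call and 11 gained one, and the cause was not tested. These counts include the fit on arrays with Y-linked RNA, in which 1 mid-aged array stood for its group. In old minus young HSC, Cxcr4 and Gpr183 were called under every alternative run. There, all genes called were 1879 with array weights (5 members), 994 with only the compared groups, 93 with young replicates 2 and 3 counted as 1, and 88 to 114 with 1 array left out.

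In mid-aged wild type minus young HSC, 6285 of 29333 probe sets were called when every probe set was tested. All genes called were 2031 with young replicates 2 and 3 as 1, and 2043 to 4161 with 1 array left out. With the actin ratio as a covariate 0 genes and 0 members were called, Gpr183 was -1.04 and Itgb1 1.21. Itga4 was 0.19 with quantile normalization, 0.051 with the mean of probe sets, 0.019 with array weights, and -0.39 to 0.30 with 1 array left out.

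In mutator minus wild type, 35 genes were called with the actin ratio, 1 with the BioB level as a block, 1 with only the arrays of low BioB, and 0 to 222 with 1 array left out (222 without mid-aged wild-type replicate 2). Itga4 was -0.043 with quantile normalization, -0.34 with array weights and -0.38 on the low BioB arrays. With 1 array left out, Cxcr4 ran from -0.15 to 0.73, Gpr183 from -0.33 to 0.38, Itga4 from -0.40 to 0.29 and Itgb1 from -0.060 to 0.93.

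For the genotype change minus the age change, 1 member, Gpr183, was called and Cxcr4 lost with quantile normalization, no filter, every probe set, pseudocount 64 or young replicates 2 and 3 as 1, and 1 to 2 with 1 array left out. All genes called were 483 with array weights, 150 with the actin ratio, 38 with young replicates 2 and 3 as 1, and 26 to 148 with 1 array left out. Itgb1 was 0.56 with the actin ratio and -0.71 to 0.28 with 1 array left out, and Itga4 -0.21 to 0.48.

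Between the CLP fractions, 718 of 32028 probe sets were called when every probe set was tested. All genes called were 105 with array weights, 228 with the actin ratio and 0 with only the compared groups. With 1 array left out they were 307 to 752, and Gpr183 ran from -0.17 to 0.034. In CLP minus young HSC, 7472 probe sets were called, and Itga4 was -0.025 with array weights and -0.084 to 0.26 with 1 array left out.

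In CLP minus mid-aged wild type, 7550 probe sets were called, 859 genes (0 members) with the actin ratio, and 1733 (1 member) with only the compared groups. With the actin ratio Gpr183 was 0.40 and Itgb1 -0.88. S1pr1 was 0.017 with quantile normalization, 0.019 with median centring and 0.041 with array weights. On the arrays with Y-linked RNA it was 0.076, given as a change only since 1 mid-aged array remained. Itga4 was -0.063 with array weights and -0.24 on the arrays with Y-linked RNA, and Vcam1 -0.016 with the mean of probe sets. With 1 array left out, 1 to 2 members were called, Itga4 ran from -0.16 to 0.53, S1pr1 from -0.15 to 0.093, Gpr183 from -0.46 to 0.25 and Vcam1 from -0.15 to 0.33.

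The labels do not say that the replicate numbers pair the arrays. Deviations from the group means correlated above 0.1 in 12 of 36 same-number pairs (-0.184 to 0.504). Young with old HSC gave 0.504, 0.419 and -0.014 for replicates 1, 2 and 3. Arrays of different number were not compared, so whether the numbers pair the arrays was not tested. With the replicate number as a block, Itgb1 lost its call in both CLP comparisons with HSC, leaving 2 members called against young and 1 against mid-aged wild type, and member calls in the other comparisons kept their count.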
